A study of Mus musculus with 24 samples.

Results

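The dentoalveolar complex, the bone-anchored tooth unit that is left when soft tissue is removed, was compared with the gingiva around the maxillary molars in ovariectomized mice given estradiol. The comparison used 4 gingival and 4 dentoalveolar complex (DAC) libraries of the estradiol-replaced group (OVXE2), matched by sample title, out of 24 libraries in the study. All mice were 11-week-old C57BL/6J females with ligature-induced periodontitis, a 5-0 silk thread tied around the maxillary second molars on both sides on day 7 and left until euthanasia on day 14. Mice of the OVXE2 group had their ovaries removed on day 0 and received 1 µg estradiol benzoate per day under the skin, in 100 µL corn oil, from day 4. The other groups, each with 4 libraries per tissue, were ovariectomized mice given oil alone (OVX) and sham-operated mice given oil alone (Sham), and they carried the same ligature. No group without a ligature is analysed here. The labels call each library a biological replicate, without saying whether gingiva and DAC came from the same animals or whether animals were pooled, so the p-values below measure the spread between these libraries.

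Bone marrow, the periodontal ligament and the gingival connective tissue are all supplied by small vessels, but marrow adds a bed of sinusoids and arterioles lined by endothelium that borders blood-forming cells. Stromal cells that express Cxcl12 and Lepr hold those blood-forming cells in place, while bone-lining cells deposit matrix and supply RANKL, the signal that turns macrophage precursors into bone-resorbing osteoclasts. Estradiol acts through nuclear estrogen receptors in bone, vessel and epithelial cells, and it is known to restrain B lymphocyte formation in marrow and bone resorption. Gingiva is a keratinized epithelium over collagen-rich connective tissue with no marrow of its own.

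Each library was a poly(A) RNA library with reads counted per gene. The 4 gingival OVXE2 libraries held 23949070 to 24463247 gene-assigned counts and the 4 DAC libraries 23697984 to 27302805. These ranges overlapped only through DAC replicate 3, since DAC replicates 1, 2 and 4 were deeper than every gingival library. Values are given as CPM (each gene's count as a share of the library total, in millionths), scaled across all 24 libraries, and always in the order of replicates 1 to 4. Gene positions are those of GENCODE M21 on GRCm38. Reads that fell on the non-counted strand of genes made up 3.48% to 9.03% in the 8 libraries and this share overlapped between tissues. Some other library measures separated the tissues fully. Reads outside any gene feature took 29.3% to 32.2% in gingival libraries, against 22.6% to 24.8% in DAC libraries. Ambiguous reads took at most 0.936% in gingiva and at least 0.981% in DAC. Every DAC library detected more genes, at least 18046, than any gingival library, at most 17742. What these gaps add to the differences below was not tested. Defining genes fitted the tissue labels. Krt13, the keratin of wet stratified epithelium, stood at 64398, 54549, 58739 and 49779 CPM in gingiva and 2709, 431, 339.6 and 276 CPM in DAC, and Dspp, the dentin matrix gene, stood at 0.392, 0.379, 0.432 and 0.5 CPM in gingiva and 714, 919, 366 and 716 CPM in DAC. DAC replicate 1 had the most epithelial RNA: 10 gingival keratinocyte genes summed to 1.18% of its counts, against 0.163% to 0.320% in the other DAC libraries and 10.6% to 12.4% in gingiva. The DAC libraries also held RNA of genes typical of nasal glands and neurons. Of 11 nasal gland genes tested, 8 were higher in DAC and 2 in gingiva (edgeR adjusted p under 0.05), Muc5b among the latter. Obp1a, an odorant-binding protein of nasal glands, reached 793, 1958, 1971 and 3316 CPM in DAC, and 6 brain neuron genes summed to 0.00484% to 0.0139% of DAC counts, highest in replicates 1 and 2, against 0.000986% to 0.00168% of gingival counts. Without gingival replicate 1, which was rich in B cell genes, and DAC replicate 1, the counts of members higher in DAC given below moved by at most 1 gene in each vascular, stromal and marrow list. The part that epithelial, nasal and neuronal RNA plays in the differences was not tested.

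Of 14209 genes tested, 5401 were higher in DAC and 4841 were higher in gingiva at an adjusted p under 0.05 (edgeR quasi-likelihood test, Benjamini-Hochberg adjustment over all genes). These are 38.0% and 34.1% of the genes, so being called is not in itself a feature of any gene group. A low-count filter over all 24 libraries chose the genes tested. Genes near 0 in a tissue could enter only through libraries where they were higher, so their direction is not independent support. A stricter test against a 2-fold difference called 2843 genes higher in DAC (20%) and 1653 higher in gingiva (11.6%). All 4 DAC values lay above all 4 gingival values for 33.5% of genes, and the reverse held for 30.3%. Among genes of sufficient level, the 10 largest differences toward DAC were led by nasal and olfactory genes such as Gfy and Obp1a and included the dentin gene Dspp and the neutrophil gene Elane. Those toward gingiva were led by secreted epithelial genes such as Bpifa5, at 132, 85.98, 178 and 109.8 CPM in gingiva and 0.173, 0.327, 0.248 and 0.482 CPM in DAC, and the mucin Muc5b. The median log2 difference (DAC minus gingiva) over all genes was 0.03, and scaling by total counts moved that median up by 0.12. Each tissue difference below is the log2 of DAC over gingiva, DAC minus gingiva on the log2 scale. It compares 4 libraries per tissue, with its SE from the joint fit of all 24 libraries. The biological coefficient of variation, the spread between libraries relative to the level, was 0.16 in gingival and 0.31 in DAC OVXE2 libraries estimated separately. Over all groups it was 0.25. In such bulk tissue samples, fewer cells of a type and less RNA per cell cannot be told apart.

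**Figure D1:**
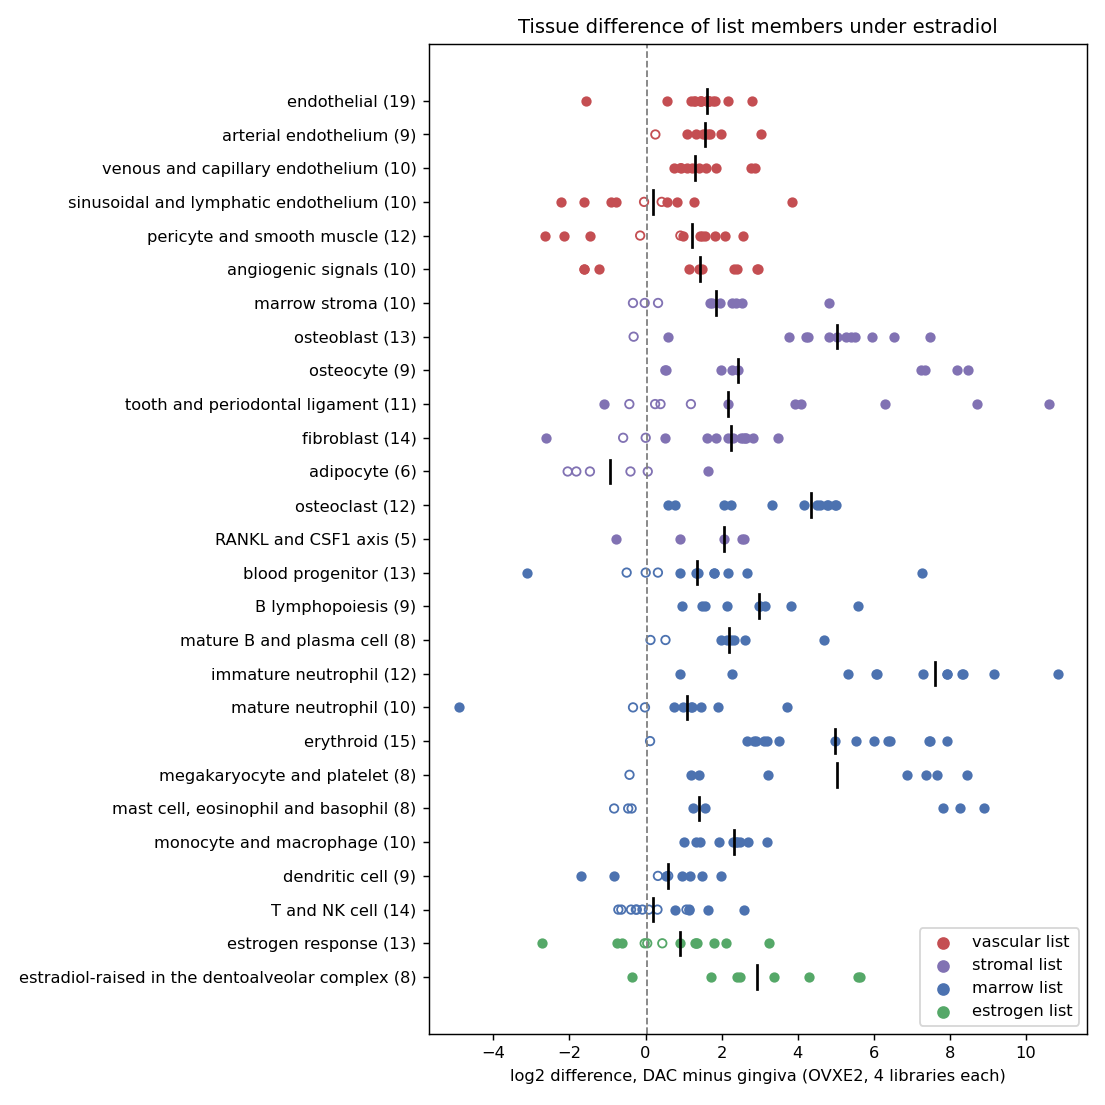
Each point is the log2 difference (DAC minus gingiva, horizontal axis) of 1 gene in the OVXE2 libraries, by gene list (number of genes tested in brackets). Filled points passed an adjusted p under 0.05, open points did not, black bars mark list medians and the dashed line marks the median of all genes at 0.03. Vessel lists have medians of 1.21 to 1.62, apart from sinusoidal and lymphatic endothelium at 0.19, whereas osteoblast, osteoclast, immature neutrophil, erythroid and megakaryocyte lists have medians above 4.

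Genes of blood vessel lining were mostly higher in DAC than in gingiva, with log2 differences from -1.55 to 2.79 over the list. Of 19 pan-endothelial genes tested, 18 were higher in DAC and 1 was higher in gingiva, 16 and 1 of them beyond 2-fold, with a median log2 difference of 1.62. The cadherin of endothelial junctions, Cdh5 (chr8:104101625-104144511, plus strand), stood at 79.01, 109, 63.6 and 72.6 CPM in gingiva and 226, 279, 229 and 262 CPM in DAC, a difference of 1.62 ± 0.17 log2 (SE, edgeR adjusted p = 2.93e-08). The lowest DAC library lay well above the highest gingival library.

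S1pr1, the sphingosine-1-phosphate receptor that keeps vessels tight and draws lymphocytes out of tissue (chr3:115710433-115715072, minus strand), measured 38.5, 51.8, 40.2 and 42.8 CPM in gingiva and 278, 300.0, 303 and 322 CPM in DAC. It differed by 2.79 ± 0.14 log2 (SE, edgeR adjusted p = 6.65e-13), the largest difference in the endothelial list. Emcn, the sialomucin of veins, capillaries and bone type H vessels (chr3:137341067-137432185, plus strand), measured 20.3, 27.7, 18.9 and 22.9 CPM in gingiva and 94.9, 83.7, 119.7 and 107 CPM in DAC, with a difference of 2.17 ± 0.20 log2 (SE, edgeR adjusted p = 4.4e-09). Egfl7, a matrix protein secreted by endothelium, measured 27.04, 25.8, 25.03 and 28.7 CPM in gingiva and 84.8, 63.8, 151 and 81.3 CPM in DAC and differed by 1.84 ± 0.25 log2 (SE, edgeR adjusted p = 1.6e-06). For these 3 genes no DAC library came down to the gingival range, although Egfl7 in DAC replicate 3 was well above the other DAC libraries.

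Sox7, an endothelial transcription factor of the SoxF family, went the other way. It measured 64.2, 78.01, 66.5 and 62.8 CPM in gingiva and 20.5, 26.02, 22.7 and 23.2 CPM in DAC, a difference of -1.55 ± 0.11 log2 (SE, edgeR adjusted p = 5.68e-11), with every gingival library above every DAC library. Its SoxF relatives Sox17 and Sox18 were higher in DAC, with log2 differences of 1.45 (edgeR adjusted p = 4.59e-08) and 1.68 (edgeR adjusted p = 5.1e-07). Vwf, the platelet-binding glycoprotein stored in endothelium, measured 76.9, 95.3, 104 and 95.3 CPM in gingiva and 133, 167, 108 and 139.8 CPM in DAC. Its difference of 0.56 ± 0.19 log2 (SE, edgeR adjusted p = 0.0115) did not pass the 2-fold test, and the call was lost (adjusted p up to 0.193) in settings that left out several libraries together.

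Counts per Cdh5 count within a library overlapped between tissues for some vessel genes and not for others. Tie1, an endothelial receptor tyrosine kinase, had a median of 0.594 counts per Cdh5 count in gingiva (range 0.514 to 0.653) and 0.601 in DAC (0.583 to 0.633), so the ranges overlapped. The ranges also overlapped for Emcn, at 0.276 (0.254 to 0.316) in gingiva and 0.413 (0.299 to 0.524) in DAC. The pericyte gene Rgs5 overlapped too, at 3.22 (2.37 to 3.69) and 2.81 (2.26 to 2.94). S1pr1 had 0.538 (0.474 to 0.632) in gingiva and 1.23 (1.07 to 1.32) in DAC, and Hey1 had 0.0721 (0.0536 to 0.0952) against 0.193 (0.165 to 0.213). Sox7 had 0.839 (0.713 to 1.04) in gingiva and 0.0918 (0.0885 to 0.0994) in DAC, and Vwf had 1.14 (0.871 to 1.64) against 0.560 (0.470 to 0.598). These ratios are descriptions, since each of these genes can also be transcribed outside endothelium.

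Arterial genes followed the same direction. Of 9 tested, 8 were higher in DAC, 7 of them beyond 2-fold, with a median log2 difference of 1.56. Hey1, a Notch target that specifies arterial fate and is also expressed in bone-forming cells, measured 5.06, 5.86, 5.102 and 6.91 CPM in gingiva and 46.4, 45.99, 48.6 and 47.4 CPM in DAC and differed by 3.04 ± 0.17 log2 (SE, edgeR adjusted p = 1.49e-12). Unc5b, a netrin receptor of arteries and tip cells, measured 58.00, 79.7, 67.97 and 71.4 CPM in gingiva and 269.9, 297, 260.2 and 279 CPM in DAC and differed by 2.00 ± 0.14 log2 (SE, edgeR adjusted p = 4.71e-11). Dll4, the arterial Notch ligand, measured 6.98, 9.82, 7.87 and 7.58 CPM in gingiva and 23.2, 26.9, 27.6 and 27.6 CPM in DAC and differed by 1.71 ± 0.16 log2 (SE, edgeR adjusted p = 3.77e-09). All 3 genes had DAC libraries that lay close to each other and clear of the gingival libraries.

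In the venous and capillary list, 9 of 10 genes were higher in DAC, 4 beyond 2-fold, and the median log2 difference was 1.31. Vcam1, the adhesion molecule that marrow sinusoids and stroma use to hold blood cells, measured 7.94, 14.8, 10.03 and 8.95 CPM in gingiva and 64.3, 93.2, 71.5 and 76.4 CPM in DAC, a difference of 2.87 ± 0.24 log2 (SE, edgeR adjusted p = 6.9e-10). Aplnr, the apelin receptor of veins and growing capillaries, measured 56.7, 83.7, 43.2 and 64.1 CPM in gingiva and 195, 235, 251 and 216 CPM in DAC, a difference of 1.86 ± 0.21 log2 (SE, edgeR adjusted p = 9e-08). Selp, the P-selectin that endothelium and platelets expose to catch leukocytes, measured 129, 208, 101 and 91.5 CPM in gingiva and 298, 379, 324 and 399 CPM in DAC. Its difference of 1.40 ± 0.30 log2 (SE, edgeR adjusted p = 0.0003) held for every pair of libraries but did not pass the test beyond 2-fold.

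**Figure D2:**
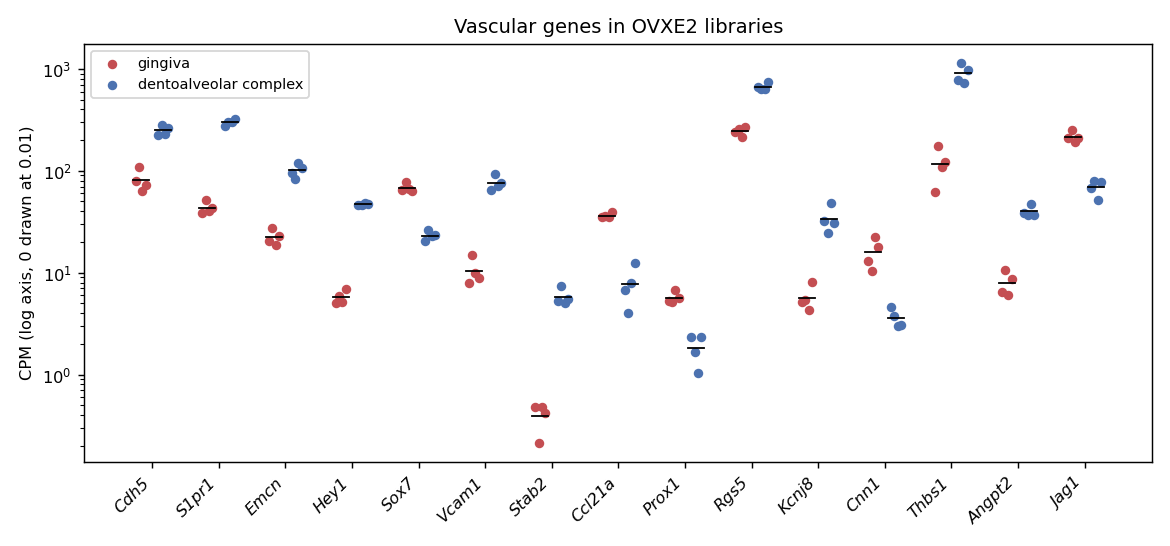
CPM (log axis) of vessel genes in each OVXE2 library, red points for gingiva and blue points for DAC, with black bars for group means. Endothelial, arterial and pericyte genes such as Cdh5, Hey1 and Kcnj8 are higher in all 4 DAC libraries, whereas Sox7, Ccl21a, Prox1, Cnn1 and Jag1 are higher in all 4 gingival libraries.

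Sinusoidal and lymphatic endothelial genes went in both directions. Among 10 tested, 4 were higher in DAC and 4 were higher in gingiva, near the shares over all genes (38.0% and 34.1%). Beyond 2-fold there were 1 and 2, and the median log2 difference of 0.19 was near that of all genes. Stab2, a scavenger receptor typical of sinusoids, measured 0.48, 0.211, 0.476 and 0.416 CPM in gingiva and 5.24, 7.48, 5.05 and 5.47 CPM in DAC, a difference of 3.86 ± 0.37 log2 (SE, edgeR adjusted p = 7.14e-09). Stab1, its relative that macrophages also carry, measured 89.6, 105, 102 and 79.5 CPM in gingiva and 175, 183, 137 and 174 CPM in DAC and differed by only 0.83 ± 0.16 log2 (SE, edgeR adjusted p = 7.49e-05). Flt4, the VEGF-C receptor of lymphatic and some other endothelium, measured 23.2, 28.2, 23.3 and 27.5 CPM in gingiva and 34.05, 43.1, 32.97 and 40.8 CPM in DAC, a difference of 0.56 ± 0.15 log2 (SE, edgeR adjusted p = 0.00193). The Flt4 call was lost (edgeR adjusted p = 0.0582) with only the libraries that had more reads on the non-counted strand. Of the 10 genes, 2 were called higher in gingiva without gingival and DAC replicate 1.

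Ccl21a, the chemokine with which lymphatic vessels attract dendritic and T cells and which has close gene copies, measured 35.3, 36.4, 34.8 and 39.02 CPM in gingiva and 6.73, 4.07, 7.98 and 12.4 CPM in DAC. It differed by -2.22 ± 0.47 log2 (SE, edgeR adjusted p = 0.00027). Prox1, the transcription factor that sets lymphatic identity, measured 5.28, 5.102, 6.79 and 5.62 CPM in gingiva and 2.32, 1.67, 1.03 and 2.34 CPM in DAC and differed by -1.62 ± 0.32 log2 (SE, edgeR adjusted p = 0.000139). Lyve1, the hyaluronan receptor of lymphatic capillaries and some macrophages, measured 9.81, 8.897, 7.96 and 9.33 CPM in gingiva and 3.74, 5.08, 3.93 and 6.33 CPM in DAC and differed by -0.91 ± 0.29 log2 (SE, edgeR adjusted p = 0.0075). In each of the 3 genes the highest DAC library stayed below the lowest gingival library. The Lyve1 call was lost (edgeR adjusted p up to 0.0743) without gingival and DAC replicate 1 and without the 4 DAC libraries richest in neuron genes. Mmrn1, a matrix glycoprotein of lymphatic endothelium and platelets, was less certain at -0.77 ± 0.34 log2 (SE, edgeR adjusted p = 0.0467), because DAC replicate 2 overlapped gingiva and the call held in leave-one-out fits only without that library.

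Genes of mural cells, the pericytes and smooth muscle that wrap vessels, also went in both directions. In this list, 7 of 12 genes were higher in DAC and 3 were higher in gingiva, 6 and 2 beyond 2-fold, with a median log2 difference of 1.21. Over all genes the shares called were 38.0% and 34.1%. Rgs5, a pericyte regulator of G protein signalling, measured 241, 259, 216 and 268 CPM in gingiva and 665, 633, 641 and 738 CPM in DAC and differed by 1.44 ± 0.12 log2 (SE, edgeR adjusted p = 4.29e-10). Kcnj8, the pore subunit of the pericyte potassium channel, measured 5.102, 5.36, 4.28 and 8.08 CPM in gingiva and 32.04, 24.8, 47.9 and 30.5 CPM in DAC, a difference of 2.57 ± 0.23 log2 (SE, edgeR adjusted p = 2.87e-09). Its partner subunit Abcc9 measured 30.4, 23.8, 21.4 and 29.03 CPM in gingiva and 105, 145, 89.01 and 110.2 CPM in DAC, a difference of 2.10 ± 0.25 log2 (SE, edgeR adjusted p = 1.99e-07). These 3 genes had no overlap between tissues.

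Cnn1, the calponin of contractile smooth muscle, was higher in gingiva at 13.04, 10.3, 22.6 and 17.99 CPM in gingiva and 4.61, 3.77, 2.98 and 3.06 CPM in DAC, a difference of -2.15 ± 0.35 log2 (SE, edgeR adjusted p = 1.35e-05). Ndufa4l2, a mitochondrial protein found in pericytes and induced by low oxygen, measured 241, 238, 233 and 252 CPM in gingiva and 53.4, 21.6, 42.1 and 37.2 CPM in DAC and differed by -2.64 ± 0.22 log2 (SE, edgeR adjusted p = 8.64e-10). Des, the desmin filament of all muscle types, measured 401, 269, 144 and 302 CPM in gingiva and 59.3, 21.5, 190.1 and 134 CPM in DAC. Its difference of -1.46 ± 0.61 log2 (SE, edgeR adjusted p = 0.0365) was lost when any of DAC replicates 1 or 2 or gingival replicates 1, 2 or 4 was left out, and 9 skeletal muscle genes summed to 0.177% to 0.564% of gingival and 0.0370% to 0.398% of DAC counts.

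Signals that shape vessels were divided. Of 10 angiogenic signal genes, 7 were higher in DAC and 3 in gingiva, 6 and 3 beyond 2-fold, with a median log2 difference of 1.44. Angpt2, the angiopoietin that loosens vessels before sprouting, measured 6.41, 10.7, 6.05 and 8.58 CPM in gingiva and 38.9, 37.1, 46.8 and 37.2 CPM in DAC, a difference of 2.33 ± 0.23 log2 (SE, edgeR adjusted p = 1.26e-08). Slit3, a guidance ligand that osteoblasts secrete and that favours bone vessels, measured 28.3, 35.2, 30.5 and 24.9 CPM in gingiva and 165, 193, 114 and 159 CPM in DAC, a difference of 2.41 ± 0.17 log2 (SE, edgeR adjusted p = 4.35e-11). Nrp2, a co-receptor for VEGF-C and semaphorins, measured 61.9, 88.8, 69.5 and 84.9 CPM in gingiva and 543, 752, 489 and 565 CPM in DAC, a difference of 2.94 ± 0.17 log2 (SE, edgeR adjusted p = 2.17e-12). All 3 were higher in every DAC library.

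Thbs1, thrombospondin 1, which restrains vessel growth, was also higher in DAC at 62.6, 174, 109.7 and 122 CPM in gingiva and 787, 1143, 722 and 974 CPM in DAC, a difference of 2.96 ± 0.26 log2 (SE, edgeR adjusted p = 1.59e-09). The 3 genes higher in gingiva were the Notch ligand Jag1, the Notch receptor Notch1 and the lymphatic growth factor Vegfd. Jag1 measured 211, 249, 190.3 and 209 CPM in gingiva and 68.5, 80.2, 51.3 and 77.9 CPM in DAC and differed by -1.63 ± 0.13 log2 (SE, edgeR adjusted p = 3.81e-10). Notch1 measured 215, 236, 196 and 194 CPM in gingiva and 97.4, 103, 67.8 and 93.2 CPM in DAC and differed by -1.22 ± 0.13 log2 (SE, edgeR adjusted p = 2.17e-08). Vegfd measured 5.93, 4.89, 3.93 and 4.62 CPM in gingiva and 1.35, 1.45, 1.61 and 1.86 CPM in DAC and differed by -1.62 ± 0.20 log2 (SE, edgeR adjusted p = 3.46e-07). The Notch ligand Dll4 and the Notch target Hey1 were thus higher in DAC while Jag1 and Notch1, both also expressed by keratinocytes, were higher in gingiva.

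The stroma of marrow was represented by its defining chemokine and receptor. Of 10 marrow stroma genes tested, 7 were higher in DAC, all 7 beyond 2-fold, none was higher in gingiva, and the median log2 difference was 1.85. Cxcl12, the chemokine that retains blood-forming cells (chr6:117168535-117181367, plus strand), measured 70.3, 93.7, 72.2 and 81.2 CPM in gingiva and 358, 378, 426 and 493 CPM in DAC, a difference of 2.38 ± 0.21 log2 (SE, edgeR adjusted p = 2.29e-09). Lepr, the leptin receptor that marks the same perivascular cells, measured 14.2, 15.98, 16.7 and 17.2 CPM in gingiva and 45.1, 58.5, 50.1 and 52.9 CPM in DAC, a difference of 1.69 ± 0.16 log2 (SE, edgeR adjusted p = 3.72e-09). Csf1, the macrophage growth factor, measured 23.7, 31.5, 22.9 and 23.8 CPM in gingiva and 147, 154, 139.6 and 153 CPM in DAC, a difference of 2.54 ± 0.10 log2 (SE, edgeR adjusted p = 3.98e-14). DAC exceeded gingiva in every library for these 3 genes.

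Of other marrow stroma genes, Kitl and Il7 were not called, whereas Spp1 and Igfbp5 were higher in DAC. Kitl, the stem cell factor that keratinocytes also make, measured 37.6, 39.4, 37.8 and 32.7 CPM in gingiva and 42.8, 57.8, 32.7 and 52.02 CPM in DAC, with a difference of 0.33 ± 0.15 log2 (SE, edgeR adjusted p = 0.0572) that was called only when DAC replicate 3 was left out, with either-strand counts or with total-count scaling. Il7, the growth factor of lymphocyte precursors, measured 1.79, 1.98, 1.38 and 2.04 CPM in gingiva and 1.87, 1.74, 1.61 and 1.86 CPM in DAC and differed by -0.02 ± 0.18 log2 (SE, edgeR adjusted p = 0.92). Spp1, osteopontin, which osteoblasts, osteoclasts and macrophages secrete, measured 68.8, 165, 103 and 91.5 CPM in gingiva and 3033, 3634, 3009.9 and 2474 CPM in DAC and differed by 4.82 ± 0.29 log2 (SE, edgeR adjusted p = 5.19e-12). Igfbp5, an insulin-like growth factor binding protein of bone and ligament, measured 552, 548, 401 and 538 CPM in gingiva and 2525, 2443, 1963 and 2884 CPM in DAC and differed by 2.27 ± 0.21 log2 (SE, edgeR adjusted p = 3.16e-09).

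Bone-forming cells gave larger differences than vessels. Of 13 osteoblast genes, 12 were higher in DAC, 11 beyond 2-fold, with a median log2 difference of 5.03. Bglap, osteocalcin, a late osteoblast hormone with near-identical gene copies between which reads may be split, measured 2.27, 3.79, 3.07 and 4.46 CPM in gingiva and 553, 428, 968 and 471 CPM in DAC, a difference of 7.47 ± 0.46 log2 (SE, edgeR adjusted p = 8.72e-12). Ibsp, bone sialoprotein, measured 25.99, 85.6, 48.5 and 93.5 CPM in gingiva and 5459, 5947, 6753 and 5408 CPM in DAC, a difference of 6.54 ± 0.42 log2 (SE, edgeR adjusted p = 1.65e-11). Col1a1, the main chain of type I collagen, measured 2253, 4730.5, 2429.7 and 4033 CPM in gingiva and 57025, 74231, 60635 and 58619 CPM in DAC, a difference of 4.22 ± 0.28 log2 (SE, edgeR adjusted p = 2.17e-11). The osteoblast genes together took 14.4% to 17.5% of DAC counts and 0.546% to 1.08% of gingival counts.

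Smpd3, a sphingomyelinase needed for mineralization and expressed in other tissues too, was the osteoblast gene not called, at 307, 254, 278 and 247 CPM in gingiva and 224, 219, 248 and 184 CPM in DAC, a difference of -0.31 ± 0.17 log2 (SE, edgeR adjusted p = 0.0971). Osteocyte genes were 8 of 9 higher in DAC, 7 beyond 2-fold, with a median log2 difference of 2.43. Sost, sclerostin, the Wnt inhibitor of embedded osteocytes (chr11:101962458-101967015, minus strand), measured 1.09, 0.759, 0.0865 and 0.916 CPM in gingiva and 276, 155, 181 and 235 CPM in DAC, a difference of 8.20 ± 0.38 log2 (SE, edgeR adjusted p = 1.9e-13). Mepe, a matrix phosphoglycoprotein, measured 0.392, 0.97, 0.259 and 0.375 CPM in gingiva and 224, 165, 162 and 177 CPM in DAC, a difference of 8.49 ± 0.30 log2 (SE, edgeR adjusted p = 9.38e-15). Neither gene exceeded 1.09 CPM in a gingival library, and both were abundant in every DAC library.

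The tooth and periodontal ligament list had 6 of 11 genes higher in DAC, all 6 beyond 2-fold, and 1 higher in gingiva. Dspp, given above, differed by 10.62 ± 0.39 log2 (SE, edgeR adjusted p = 1.25e-14). Postn, periostin, a ligament matrix protein, measured 468, 921, 506 and 809 CPM in gingiva and 10043, 10108, 11288 and 9428 CPM in DAC, a difference of 3.92 ± 0.26 log2 (SE, edgeR adjusted p = 1.85e-11). Tnn, tenascin W, measured 65.98, 106, 52.9 and 94.4 CPM in gingiva and 1288, 1587, 1282 and 1299 CPM in DAC, a difference of 4.10 ± 0.31 log2 (SE, edgeR adjusted p = 2.32e-10). Odam, made by the junctional epithelium that seals gingiva to enamel, was higher in gingiva at 197, 248, 324 and 273 CPM in gingiva and 184, 80.3, 71.8 and 157 CPM in DAC, a difference of -1.08 ± 0.32 log2 (SE, edgeR adjusted p = 0.00468).

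Connective tissue fibroblast genes were mostly higher in DAC. Of 14 tested, 11 were higher in DAC and 1 in gingiva, 10 and 1 beyond 2-fold, with a median log2 difference of 2.24. Col3a1, the chain of type III collagen, measured 1612, 2943, 1733 and 2380.2 CPM in gingiva and 23622, 25281, 25456 and 22326 CPM in DAC, a difference of 3.48 ± 0.24 log2 (SE, edgeR adjusted p = 4.71e-11). Lum, the proteoglycan lumican, measured 217, 401, 234 and 386 CPM in gingiva and 2096, 1939, 2486 and 2185 CPM in DAC, a difference of 2.81 ± 0.24 log2 (SE, edgeR adjusted p = 9.48e-10), and Pdgfra, a growth factor receptor of mesenchyme, measured 49.9, 86.7, 53.7 and 71.2 CPM in gingiva and 282, 390.5, 273 and 343 CPM in DAC, a difference of 2.30 ± 0.21 log2 (SE, edgeR adjusted p = 3.06e-09). Clec3b, tetranectin, was the gene higher in gingiva, at 10.6, 8.69, 7.44 and 10.3 CPM in gingiva and 1.84, 1.09, 1.45 and 1.58 CPM in DAC, a difference of -2.63 ± 0.49 log2 (SE, edgeR adjusted p = 7.23e-05). Of 6 adipocyte genes tested, only Lpl, lipoprotein lipase, which macrophages also make, was called, at 70.8, 43.3, 40.99 and 86.4 CPM in gingiva and 193, 170.4, 198 and 190.0 CPM in DAC and a difference of 1.64 ± 0.23 log2 (SE, edgeR adjusted p = 1.69e-06).

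**Figure D3:**
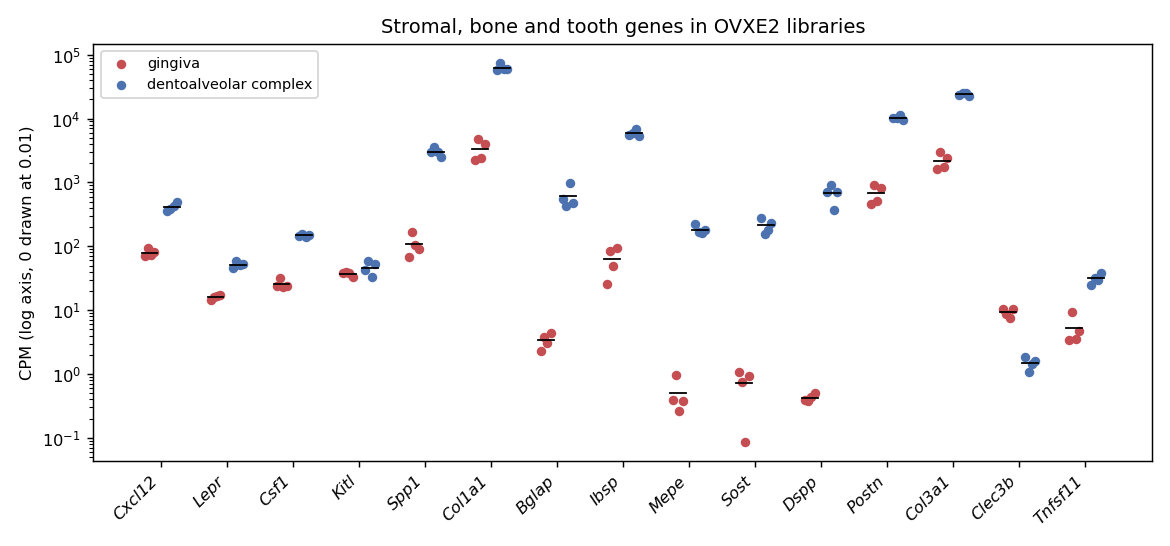
CPM (log axis) of stromal, bone and tooth genes in each OVXE2 library, red for gingiva and blue for DAC, with black bars for group means. Mineralized tissue genes differ by orders of magnitude, Cxcl12, Lepr and Csf1 by a few fold, Kitl overlaps between tissues and Clec3b is higher in all gingival libraries.

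The tested genes of the RANKL and CSF1 axis were higher in DAC with 1 exception. The list members Tnfrsf11b and Csf1r were not analysed here, so the axis as a whole could not be described. Of 5 genes of the RANKL and CSF1 axis, 4 were higher in DAC, 3 beyond 2-fold. Tnfsf11, RANKL itself, measured 3.36, 9.49, 3.502 and 4.66 CPM in gingiva and 25.2, 32.2, 30.1 and 38.8 CPM in DAC, a difference of 2.59 ± 0.34 log2 (SE, edgeR adjusted p = 8.34e-07). Its receptor Tnfrsf11a measured 9.16, 11.2, 13.4 and 10.7 CPM in gingiva and 48.1, 57.6, 37.7 and 43.04 CPM in DAC, a difference of 2.06 ± 0.15 log2 (SE, edgeR adjusted p = 7.21e-11). Il34, the second ligand of the CSF1 receptor and a product of keratinocytes, was higher in gingiva at 22.5, 24.6, 18.9 and 21.2 CPM in gingiva and 13.2, 12.2, 13.9 and 11.7 CPM in DAC, a difference of -0.78 ± 0.14 log2 (SE, edgeR adjusted p = 5.19e-05).

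All 12 osteoclast genes tested were higher in DAC, 10 beyond 2-fold, with a median log2 difference of 4.34. Ctsk, cathepsin K, which digests bone collagen (chr3:95499256-95509362, plus strand), measured 95.4, 185, 159.7 and 143 CPM in gingiva and 3524, 3771, 3699 and 3074 CPM in DAC, a difference of 4.59 ± 0.24 log2 (SE, edgeR adjusted p = 9.2e-13). Acp5, the acid phosphatase TRAP, measured 116, 158, 147 and 112 CPM in gingiva and 3709, 3340.4, 4372 and 3147 CPM in DAC, a difference of 4.77 ± 0.21 log2 (SE, edgeR adjusted p = 7.29e-14). Atp6v0d2, a proton pump subunit needed for osteoclast fusion, measured 4.62, 10.7, 7.52 and 7.12 CPM in gingiva and 266, 263, 212 and 217 CPM in DAC, a difference of 5.00 ± 0.26 log2 (SE, edgeR adjusted p = 6.99e-13). The spread among DAC libraries was small beside these differences. Monocyte and macrophage genes were 10 of 10 higher in DAC, 8 beyond 2-fold, with a median log2 difference of 2.34. Cd68, a lysosomal protein of macrophages and osteoclasts, measured 24.6, 26.02, 21.7 and 23.99 CPM in gingiva and 228, 217, 244 and 194 CPM in DAC, a difference of 3.20 ± 0.15 log2 (SE, edgeR adjusted p = 1.66e-13).

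Genes listed for blood progenitors were mostly higher in DAC. Of 13 blood progenitor genes, 9 were higher in DAC and 1 in gingiva, 8 and 1 beyond 2-fold, with a median log2 difference of 1.34. Myb, a factor of dividing progenitors (chr10:21124935-21160984, minus strand), measured 3.05, 1.86, 2.59 and 2.25 CPM in gingiva and 7.04, 11.5, 5.46 and 10.01 CPM in DAC, a difference of 1.80 ± 0.22 log2 (SE, edgeR adjusted p = 3.46e-07). Kit, the stem cell factor receptor of progenitors and mast cells, measured 12.8, 15.4, 19.3 and 14.6 CPM in gingiva and 38.6, 48.9, 28.7 and 41.2 CPM in DAC, a difference of 1.34 ± 0.18 log2 (SE, edgeR adjusted p = 9.52e-07). Meis1, a homeobox factor of stem cells and of many other tissues, was higher in gingiva at 62.7, 67.6, 56.8 and 65.6 CPM in gingiva and 11.6, 8.46, 3.64 and 5.44 CPM in DAC, a difference of -3.11 ± 0.29 log2 (SE, edgeR adjusted p = 4.54e-09).

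Granule genes that neutrophils make only while still in marrow gave the largest list median. All 12 immature neutrophil genes tested were higher in DAC, 11 beyond 2-fold, with a median log2 difference of 7.61. Mpo, myeloperoxidase (chr11:87793581-87804413, plus strand), measured 0.174, 0.675, 0.0865 and 0.25 CPM in gingiva and 76.1, 133, 87.4 and 99.98 CPM in DAC, a difference of 8.35 ± 0.40 log2 (SE, edgeR adjusted p = 2.54e-13). Elane, neutrophil elastase (chr10:79886247-79888215, plus strand), measured 0, 0.169, 0.0432 and 0.0833 CPM in gingiva and 36.9, 58.4, 45.9 and 41.1 CPM in DAC, a difference of 9.16 ± 0.47 log2 (SE, edgeR adjusted p = 7.34e-13). Fcnb, ficolin B, had no count in any gingival library and 5.96, 11.9, 11.8 and 8.46 CPM in DAC, at least 294-fold higher against a floor of 3 counts over the gingival group. Fcnb could pass the low-count filter only through other libraries, so its place among the 12 is not independent support. Ltf, lactoferrin, which glands also secrete, differed least at 187, 278, 148 and 122 CPM in gingiva and 269, 395, 304 and 409 CPM in DAC and 0.91 ± 0.33 log2 (SE, edgeR adjusted p = 0.0171), and its call was lost without gingival replicate 3 or 4.

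Genes of mature neutrophils behaved otherwise. Of 10 tested, 7 were higher in DAC and 1 in gingiva, 2 and 1 beyond 2-fold, with a median log2 difference of 1.09. S100a8, a calgranulin subunit of neutrophils and of stressed keratinocytes, measured 1355, 946, 1210.0 and 1103 CPM in gingiva and 633, 686, 1468 and 887 CPM in DAC, a difference of -0.33 ± 0.21 log2 (SE, edgeR adjusted p = 0.158). Its partner S100a9 measured 2145, 1497, 1699 and 1672 CPM in gingiva and 1144, 1089, 2871 and 1840.2 CPM in DAC, a difference of -0.01 ± 0.24 log2 (SE, edgeR adjusted p = 0.96). The groups overlapped for both, and S100a8 was called, higher in gingiva, only when DAC replicate 3 was left out. Mmp8, neutrophil collagenase, measured 2.22, 6.54, 2.59 and 6.71 CPM in gingiva and 39.6, 69.2, 63.8 and 66.5 CPM in DAC, a difference of 3.72 ± 0.39 log2 (SE, edgeR adjusted p = 2.86e-08). Asprv1, which also encodes a protease of keratinizing epidermis, was higher in gingiva at 2854, 1999, 2402 and 2107 CPM in gingiva and 227, 26.4, 36.4 and 23.4 CPM in DAC, a difference of -4.90 ± 0.65 log2 (SE, edgeR adjusted p = 8.69e-07), with the epithelium-rich DAC replicate 1 highest among DAC libraries.

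Red cell genes were 14 of 15 higher in DAC, all 14 beyond 2-fold, with a median log2 difference of 4.98. Gata1, the master factor of red cells and megakaryocytes (chrX:7959260-7978071, minus strand), measured 0.0436, 0.0843, 0 and 0.125 CPM in gingiva and 4.61, 8.89, 5.67 and 4.44 CPM in DAC, a difference of 6.42 ± 0.56 log2 (SE, edgeR adjusted p = 1.8e-09). Slc4a1, the band 3 anion exchanger, measured 0.61, 1.096, 0.303 and 0.458 CPM in gingiva and 51.9, 199.7, 83.9 and 104 CPM in DAC, a difference of 7.46 ± 0.52 log2 (SE, edgeR adjusted p = 5.94e-11). DAC replicate 1 was the lowest DAC library for Slc4a1, and the erythroid list summed to 0.0970% of its counts against 0.219% to 0.278% in the other DAC libraries.

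The globins, which circulating red cells still hold and whose copies share sequence, differed less. Hbb-bs measured 133, 131, 115 and 88.7 CPM in gingiva and 488, 957, 1707 and 1122 CPM in DAC, a difference of 3.19 ± 0.38 log2 (SE, edgeR adjusted p = 1.9e-07), and Hba-a1 differed by 3.12 ± 0.37 log2 (SE, edgeR adjusted p = 1.73e-07). Ank1, an ankyrin of red cells and of skeletal muscle, measured 32.01, 10.6, 10.1 and 28.7 CPM in gingiva and 12.5, 29.9, 23.7 and 22.4 CPM in DAC and differed by 0.12 ± 0.44 log2 (SE, edgeR adjusted p = 0.815). In the megakaryocyte and platelet list, 7 of 8 genes were higher in DAC, 5 beyond 2-fold, with a median log2 difference of 5.04. Gp6, the platelet collagen receptor, had 1 count in gingiva in all and 6.62, 8.67, 3.06 and 3.75 CPM in DAC. Pf4, platelet factor 4, measured 5.63, 7.72, 5.79 and 6.04 CPM in gingiva and 64.1, 58.8, 63.5 and 46.4 CPM in DAC, a difference of 3.21 ± 0.23 log2 (SE, edgeR adjusted p = 8.34e-11). Ppbp, the platelet basic protein, was not called at 639.9, 930.2, 885 and 966 CPM in gingiva and 709.9, 509, 307 and 1029 CPM in DAC and -0.42 ± 0.37 log2 (SE, edgeR adjusted p = 0.308).

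Promoters of the lineage lists are shown because most members of the lists they come from were higher in DAC. The stretches are the 250 bases before the transcription start from RefSeq on GRCm38.p6, where 261 of the 345 list symbols had an entry. A script searched both strands for AGATAA or TGATAA, the letters bound by GATA factors, for GGAAGT, a core bound by ETS factors, for TTGCNNAA, a form of the C/EBP site, and for an estrogen response element, GGTCA and TGACC with any 3 bases between them. None of these letter strings contains another. These motifs were chosen from a longer set searched first, after the counts had been seen, and the other motifs of that set are not shown, so the counts support no difference between lists. A match is a description of letters, not of binding. GATA letters stood in 9 of 11 erythroid promoters against 18.8% of all 27025 gene symbols, and in 6 of 8 nasal gland promoters. ETS letters stood in 5 of 8 endothelial, 6 of 11 immature neutrophil, 6 of 9 mature neutrophil, 1 of 11 erythroid and 0 of 8 arterial endothelium promoters, against 22.2% of all. C/EBP letters stood in 5 of 11 immature neutrophil, 2 of 9 mature neutrophil and 4 of 5 adipocyte promoters and in 0 of 8 endothelial promoters, against 10.8% of all. The estrogen response element stood in 0 of 11 estrogen response promoters and in 0.0666% of all. For 4 of the lists, the promoter with a match whose gene had the largest tissue difference reads as follows, with the motif in capitals.
Egfl7 (chr2:26580833-26581082, plus strand): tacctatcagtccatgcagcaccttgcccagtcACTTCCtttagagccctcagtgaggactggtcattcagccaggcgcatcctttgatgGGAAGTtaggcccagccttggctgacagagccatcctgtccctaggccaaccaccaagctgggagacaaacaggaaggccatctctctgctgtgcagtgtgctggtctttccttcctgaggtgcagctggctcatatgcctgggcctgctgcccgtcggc
Fcnb (chr2:28084879-28085128, minus strand): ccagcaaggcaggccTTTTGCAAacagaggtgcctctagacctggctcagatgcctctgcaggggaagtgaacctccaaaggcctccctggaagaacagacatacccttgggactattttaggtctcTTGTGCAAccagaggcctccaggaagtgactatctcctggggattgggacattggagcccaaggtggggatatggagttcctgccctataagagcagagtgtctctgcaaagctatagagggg
Rhd (chr4:134864286-134864535, plus strand): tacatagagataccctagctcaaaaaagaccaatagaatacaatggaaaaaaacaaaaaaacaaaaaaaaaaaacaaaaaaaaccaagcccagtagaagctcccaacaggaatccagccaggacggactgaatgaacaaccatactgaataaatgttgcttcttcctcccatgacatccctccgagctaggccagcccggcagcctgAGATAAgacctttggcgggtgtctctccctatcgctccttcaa
Gp9 (chr6:87777820-87778069, plus strand): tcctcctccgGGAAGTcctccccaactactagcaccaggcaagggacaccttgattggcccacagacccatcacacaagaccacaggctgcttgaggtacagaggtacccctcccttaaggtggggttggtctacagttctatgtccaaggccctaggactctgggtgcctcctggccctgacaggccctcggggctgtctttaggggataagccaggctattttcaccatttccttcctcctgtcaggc
Egfl7 and Fcnb each hold 2 matches in capitals, to the ETS and the C/EBP letters, and Fcnb also holds ETS letters, left in lower case, whereas Rhd, the red cell Rh antigen, holds 1 GATA match and Gp9, a platelet adhesion subunit, holds 1 ETS match.

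**Figure D4:**
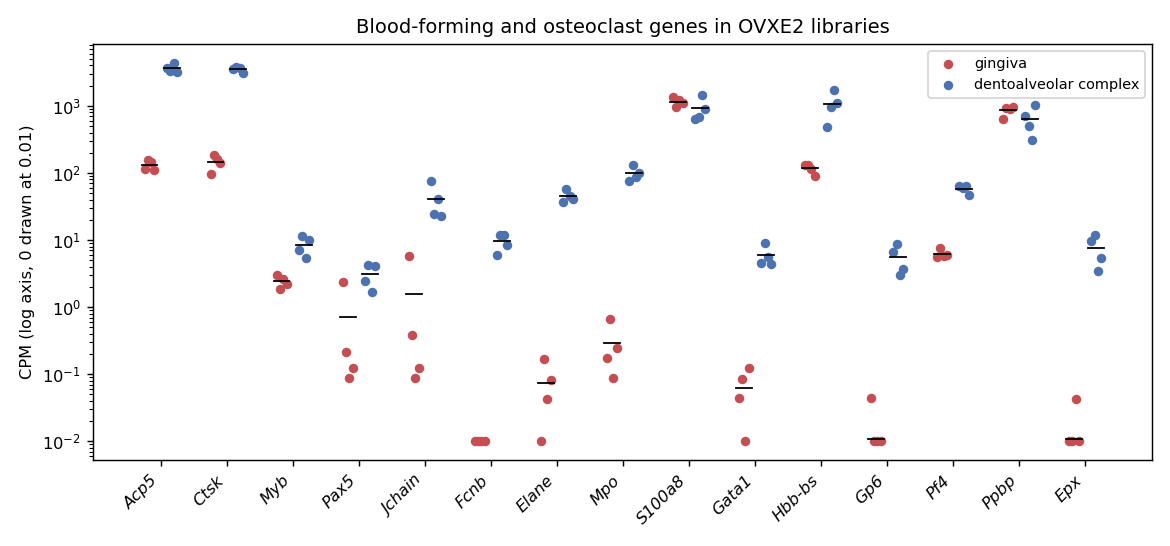
CPM (log axis, values of 0 drawn at 0.01) of osteoclast and blood cell genes in each OVXE2 library, red for gingiva and blue for DAC, with black bars for group means. Precursor genes such as Mpo, Elane, Fcnb and Gp6 lie near 0 in gingiva, whereas S100a8 and Ppbp overlap between tissues, and gingival replicate 1 stands above the other gingival libraries for Pax5 and Jchain.

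B cell genes were present at low levels in DAC. All 9 B lymphopoiesis genes were higher in DAC, 6 beyond 2-fold, with a median log2 difference of 2.98, or 2.94 with the gene at 0 in gingiva set to its bound. Vpreb3, a gene of the B cell lineage, measured 0.567, 0, 0.0865 and 0 CPM in gingiva and 2.08, 2.32, 2.32 and 2.68 CPM in DAC, a difference of 3.83 ± 0.58 log2 (SE, edgeR adjusted p = 5.34e-06). Rag1, which cuts DNA to assemble antigen receptors (chr2:101638282-101649501, minus strand), measured 0.131, 0.253, 0.303 and 0.167 CPM in gingiva and 1.49, 2.11, 0.538 and 2.68 CPM in DAC, a difference of 2.98 ± 0.47 log2 (SE, edgeR adjusted p = 9.5e-06). Its partner Rag2 had no gingival count and 0.381, 0.29, 0.165 and 0.138 CPM in DAC, at least 7.70-fold higher against the same floor. Rag2 could pass the low-count filter only through other libraries, so its place among the 9 is not independent support. Ebf1, a B cell factor that stroma and fat precursors also use, measured 10.2, 10.5, 8.65 and 14.3 CPM in gingiva and 32.7, 31.7, 25.8 and 38.3 CPM in DAC, a difference of 1.56 ± 0.19 log2 (SE, edgeR adjusted p = 2.99e-07).

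Gingival replicate 1 held more B cell RNA than the other gingival libraries. Pax5, the B lineage commitment factor, measured 2.398, 0.211, 0.0865 and 0.125 CPM in gingiva and 2.46, 4.21, 1.696 and 4.06 CPM in DAC, so that this library reached the DAC range. Its difference of 2.15 ± 0.80 log2 (SE, edgeR adjusted p = 0.0218) was lost without gingival replicate 2, 3 or 4. Of 8 mature B and plasma cell genes, 6 were higher in DAC, 5 beyond 2-fold, with a median log2 difference of 2.19. Jchain, which joins secreted antibodies, measured 5.76, 0.379, 0.0865 and 0.125 CPM in gingiva and 75.8, 24.7, 40.8 and 22.98 CPM in DAC, a difference of 4.70 ± 1.00 log2 (SE, edgeR adjusted p = 0.000297).

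The eosinophil genes Prg2 and Epx were higher in DAC, whereas 3 mast cell proteases were not called. In the list of mast cells, eosinophils and basophils, 5 of 8 genes were higher in DAC, 3 beyond 2-fold. Prg2, the eosinophil major basic protein, measured 0.0872, 0.0843, 0.0865 and 0.125 CPM in gingiva and 45.04, 45.8, 11.7 and 22.4 CPM in DAC, a difference of 8.27 ± 0.91 log2 (SE, edgeR adjusted p = 5.9e-08). Epx, eosinophil peroxidase, had 1 count in gingiva in all and 9.64, 11.7, 3.47 and 5.47 CPM in DAC, with DAC replicate 3 lowest. The ratio of counts was 722 (95% exact interval 129 to 28551, counting error only). Cpa3, Mcpt4 and Cma1, mast cell proteases, had log2 differences of -0.46, -0.83 and -0.37, with edgeR adjusted p of 0.35, 0.0694 and 0.378. Mcpt4 was called, higher in gingiva, without DAC replicate 3 and when the 8 OVXE2 libraries were fitted alone. Hdc, the histamine-forming enzyme of mast cells and basophils, measured 11.4, 39.6, 14.7 and 15.4 CPM in gingiva and 33.7, 52.9, 53.8 and 50.8 CPM in DAC, a difference of 1.24 ± 0.34 log2 (SE, edgeR adjusted p = 0.00287). Its gingival replicate 2 lay within the DAC range.

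Most T and NK cell genes were not called, and dendritic cell genes went in both directions. Of 14 T and NK cell genes, 4 were higher in DAC and none in gingiva, with a median log2 difference of 0.20. Cd3e, a chain of the T cell receptor complex, measured 2.49, 2.28, 2.42 and 2.67 CPM in gingiva and 1.56, 0.871, 1.200 and 2.68 CPM in DAC, a difference of -0.64 ± 0.41 log2 (SE, edgeR adjusted p = 0.173) that passed only without DAC replicate 4. Cd4, which some myeloid cells also carry, measured 2.62, 2.403, 4.02 and 2.92 CPM in gingiva and 20.9, 18.9, 15.5 and 16.5 CPM in DAC, a difference of 2.58 ± 0.22 log2 (SE, edgeR adjusted p = 8.06e-10). Of 9 dendritic cell genes, 5 were higher in DAC and 2 in gingiva, against 38.0% and 34.1% of all genes. Siglech, of plasmacytoid dendritic cells, measured 1.35, 1.77, 1.600 and 1.499 CPM in gingiva and 5.65, 6.75, 6.66 and 5.71 CPM in DAC and differed by 1.99 ± 0.25 log2 (SE, edgeR adjusted p = 4.19e-07). Cd207, the langerin of epithelial Langerhans cells, was higher in gingiva at 3.31, 3.46, 2.64 and 2.79 CPM in gingiva and 0.971, 0.799, 1.28 and 0.688 CPM in DAC and -1.70 ± 0.32 log2 (SE, edgeR adjusted p = 8.08e-05).

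Hormone receptors differed between the tissues in opposite directions. Esr1, estrogen receptor alpha (chr10:4611593-5005614, plus strand), measured 4.19, 3.37, 2.98 and 3.42 CPM in gingiva and 12.2, 19.5, 14.4 and 14.7 CPM in DAC, a difference of 2.12 ± 0.18 log2 (SE, edgeR adjusted p = 1.25e-09). Gper1, a membrane receptor reported to bind estrogen, measured 0.567, 1.35, 0.908 and 1.499 CPM in gingiva and 9.15, 8.86, 14.7 and 8.498 CPM in DAC, a difference of 3.24 ± 0.28 log2 (SE, edgeR adjusted p = 1.68e-09). Pgr, which encodes the progesterone receptor and is a textbook target of estrogen (chr9:8899833-8968611, plus strand), was higher in gingiva at 31.8, 21.1, 28.4 and 26.6 CPM in gingiva and 6.35, 4.32, 2.07 and 3.54 CPM in DAC, a difference of -2.72 ± 0.31 log2 (SE, edgeR adjusted p = 8.65e-08). Over the 13 estrogen response genes tested, 7 were higher in DAC and 3 in gingiva, 6 and 1 beyond 2-fold, with a median log2 difference of 0.91.

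A list of 8 genes known from these same libraries to be raised by estradiol in DAC is not independent evidence of its direction. In it, 7 genes were higher in DAC, all beyond 2-fold, and 1 was higher in gingiva, with a median log2 difference of 2.93. A2m, alpha-2-macroglobulin, a protease inhibitor (chr6:121635376-121679227, plus strand), measured 1.22, 1.897, 1.17 and 0.625 CPM in gingiva and 60.7, 75.4, 45.8 and 62.8 CPM in DAC, a difference of 5.63 ± 0.36 log2 (SE, edgeR adjusted p = 1.52e-11). Trpc6, a calcium-permeable channel of vessel and kidney cells (chr9:8544142-8680741, plus strand), measured 1.53, 1.77, 1.51 and 1.54 CPM in gingiva and 34.2, 37.9, 25.4 and 27.2 CPM in DAC, a difference of 4.29 ± 0.19 log2 (SE, edgeR adjusted p = 1.26e-13). Pi15, a peptidase inhibitor (chr1:17601901-17630939, plus strand), measured 14.1, 15.6, 13.6 and 12.9 CPM in gingiva and 45.9, 57.1, 31.8 and 50.95 CPM in DAC, a difference of 1.72 ± 0.27 log2 (SE, edgeR adjusted p = 8.36e-06). Aldh1a2, which makes retinoic acid, measured 7.28, 6.96, 5.84 and 8.16 CPM in gingiva and 42.3, 38.6, 34.9 and 32.8 CPM in DAC, a difference of 2.39 ± 0.20 log2 (SE, edgeR adjusted p = 6.94e-10). These 4 genes had no overlap between tissues. Tenm4, a teneurin adhesion protein, measured 73.6, 76.7, 64.7 and 58.3 CPM in gingiva and 50.2, 69.6, 40.7 and 53.4 CPM in DAC, and its difference of -0.35 ± 0.16 log2 (SE, edgeR adjusted p = 0.048) was lost in 6 of 8 leave-one-out fits, all but those without DAC replicate 2 or gingival replicate 4.

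Whether the tissue difference itself depended on treatment was tested by comparing it between OVXE2 and each of the other groups. Against OVX, 27 of 14209 genes differed (0.19%), 10 shifted toward DAC (0.0704%) and 17 toward gingiva (0.12%). Against Sham, 9 genes differed (0.0633%), 5 toward DAC (0.0352%) and 4 toward gingiva (0.0282%). At an unadjusted p under 0.05 the counts were 1252 and 1110, which are 8.81% and 7.81% of genes. Both tests share the OVXE2 libraries. In DAC OVX replicate 1, the nasal gland gene Bpifb9b was the largest gene, at 9.43% of counts. Leaving out that library gave 23 genes against OVX, and the part its nasal RNA plays was not tested. Without gingival OVXE2 replicate 1 and DAC OVXE2 replicate 1 the counts were 8 and 2, and without the 4 DAC libraries richest in neuron genes they were 9 and 0, so none of the calls against Sham held in the latter setting. The counts ranged from 15 to 33 against OVX and from 4 to 37 against Sham when single libraries were left out. The lowest against OVX was 15, without gingival OVXE2 replicate 1, and the highest against Sham was 37, without DAC OVXE2 replicate 3. Leaving out gingival OVXE2 replicate 1, 2, 3 or 4 gave 5, 4, 5 and 5 genes against Sham.

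Estradiol-raised genes were among the strongest shifts, within the limit on that list given above. Pi15 in DAC was 5.95, 3.22, 2.51 and 6.54 CPM in OVX and 5.93, 6.75, 5.16 and 5.09 CPM in Sham, below the gingival means of 12.2 and 9.54 CPM, so its tissue order turned round in OVXE2. The shift was 3.14 ± 0.39 log2 (SE, edgeR adjusted p = 0.000387) against OVX and 2.46 ± 0.39 log2 (SE, edgeR adjusted p = 0.0102) against Sham, and the call against Sham was lost without gingival and DAC OVXE2 replicate 1. Trpc6 in DAC was 6.61, 6.88, 4.03 and 5.64 CPM in OVX and 7.53, 9.12, 7.93 and 5.58 CPM in Sham, a shift of 2.38 ± 0.26 log2 (SE, edgeR adjusted p = 6.05e-05) against OVX, while against Sham it was 1.29 ± 0.26 log2 (SE, edgeR adjusted p = 0.0695) and did not pass. A2m in DAC was 4.63, 4.01, 3.99 and 7.24 CPM in OVX and 8.48, 10.6, 11.6 and 11.5 CPM in Sham, a shift of 2.57 ± 0.52 log2 (SE, edgeR adjusted p = 0.0411) against OVX. The A2m call held in 5 of 16 leave-one-out fits, those without DAC OVX replicate 4, DAC OVXE2 replicate 3, gingival OVX replicate 2 or 4, or gingival OVXE2 replicate 2.

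Pgr was low in DAC of the other groups, at 1.21, 0.318, 0.646 and 0.929 CPM in OVX and 0.912, 0.973, 0.408 and 0.527 CPM in Sham, and its gingival means there were 23.7 and 24.7 CPM. The gap to gingiva was thus smaller in OVXE2, a shift of 2.20 ± 0.45 log2 (SE, edgeR adjusted p = 0.0444) against OVX and 2.42 ± 0.46 log2 (SE, edgeR adjusted p = 0.0545) against Sham. The call against OVX held in only 2 of 16 leave-one-out fits, those without DAC OVX replicate 1 or DAC OVXE2 replicate 3. Tenm4 shifted by 1.24 ± 0.22 log2 (SE, edgeR adjusted p = 0.0155) against OVX and by 1.21 ± 0.22 log2 (SE, edgeR adjusted p = 0.037) against Sham, and the second call held in 3 of 16 leave-one-out fits, those without DAC OVXE2 replicate 3, DAC Sham replicate 2 or gingival Sham replicate 4. In DAC it measured 26.1, 20.5, 17.6 and 24.2 CPM in OVX and 21.2, 28.2, 21.2 and 19.1 CPM in Sham.

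Shifts toward gingiva included progenitor and lymphoid genes. Myb in DAC was 41.4, 38.6, 40.6 and 33.6 CPM in OVX and 32.5, 28.1, 21.3 and 17.1 CPM in Sham, a shift of -2.13 ± 0.31 log2 (SE, edgeR adjusted p = 0.00312) against OVX, and against Sham -1.32 ± 0.31 log2 (SE, edgeR adjusted p = 0.149). Rag1 in DAC was 29.3, 16.9, 14.9 and 14.5 CPM in OVX and 9.16, 8.81, 7.25 and 4.17 CPM in Sham, a shift of -4.28 ± 0.76 log2 (SE, edgeR adjusted p = 0.015) against OVX, which was lost with limma-voom, without gingival OVXE2 replicate 3, without gingival and DAC OVXE2 replicate 1, and without the 4 DAC libraries richest in neuron genes. Fam129c, a gene of the B cell lineage, was 19.3, 17.8, 23.4 and 18.8 CPM in DAC of OVX mice and 16.6, 9.97, 12.7 and 8.48 CPM in Sham against 2.39, 2.25, 3.23 and 3.68 CPM in OVXE2. Its shift was -2.58 ± 0.28 log2 (SE, edgeR adjusted p = 6.05e-05) against OVX and -2.04 ± 0.28 log2 (SE, edgeR adjusted p = 0.00403) against Sham. Every OVXE2 DAC library was below every OVX and Sham DAC library for these 3 genes.

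**Figure D5:**
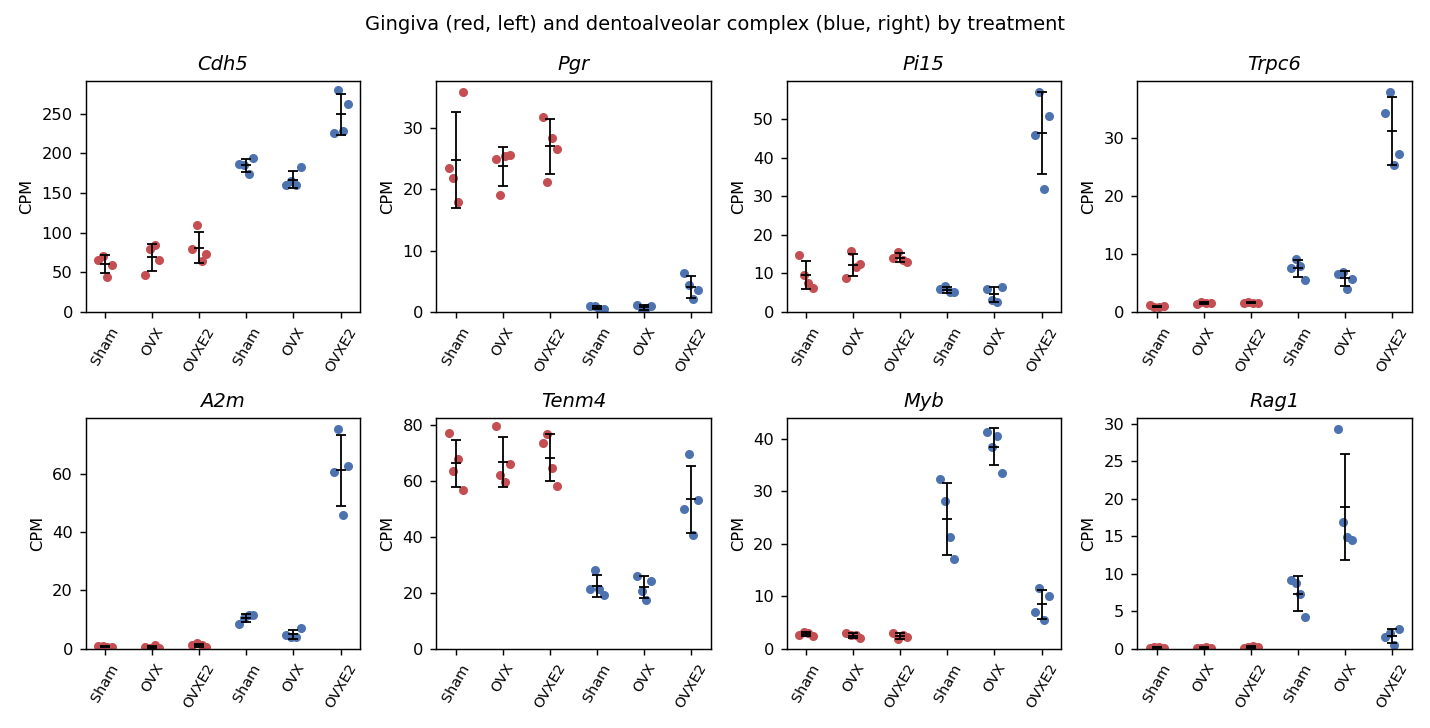
CPM in each library by treatment, gingiva in red on the left and DAC in blue on the right of each panel, with black marks for the mean and bars for the SD (n = 4). Pi15, Trpc6, A2m and Tenm4 are higher, and Myb and Rag1 lower, in DAC of OVXE2 mice than in DAC of the other groups, while no gene of the series passed a test between OVXE2 and OVX within gingiva.

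Endothelial and marrow stroma medians lay on the DAC side in each treatment group. None of the 19 endothelial genes passed the test of a changed tissue difference against OVX or Sham with edgeR, DESeq2 or limma-voom, and 5 and 1 had an unadjusted p under 0.05 in edgeR. Their median log2 tissue difference was 1.62 in OVXE2, 1.14 in OVX and 1.56 in Sham. The shift from OVX to OVXE2 was toward DAC in 18 of 19, with a median log2 difference of 0.35 against 0.03 for all genes. Against Sham it was toward DAC in 11 of 19, with a median log2 difference of 0.05. Cdh5 in DAC was 159.7, 165, 160.1 and 183 CPM in OVX and 187, 185, 174 and 194 CPM in Sham, and its shift against OVX was 0.34 ± 0.24 log2 (SE, edgeR adjusted p = 0.706). Marrow stroma medians on the same scale were 1.85, 1.79 and 1.86 in OVXE2, OVX and Sham, and 0 of its 10 genes passed with any of the 3 tools, with 1 at an unadjusted p under 0.05 in edgeR in each test. Cxcl12 shifted by -0.26 ± 0.29 log2 (SE, edgeR adjusted p = 0.827) against OVX. Medians of the other vascular and stromal lists also lay on the DAC side in each group, except for the sinusoidal and lymphatic and the adipocyte lists. Arterial medians, for example, were 1.56, 1.26 and 1.59 in OVXE2, OVX and Sham, and fibroblast medians were 2.24, 1.93 and 2.44. Sinusoidal and lymphatic medians were 0.19, -0.00257 and -0.03 in OVXE2, OVX and Sham, and adipocyte medians were -0.93, 0.58 and 0.04, with 1 of 6 adipocyte genes called in OVXE2, higher in DAC.

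Some blood-forming lists had smaller median log2 tissue differences in OVXE2 than in both other groups, others did not, and few members passed the test. For the 11 immature neutrophil genes with counts in every group, the median was 7.30 in OVXE2, 8.99 in OVX and 9.17 in Sham, and 0 of the 12 tested passed with edgeR in either test, with 7 and 6 at an unadjusted p under 0.05, while DESeq2 called 2 against OVX. Mpo in DAC was 329, 449, 349 and 332 CPM in OVX and 414, 382, 243 and 177 CPM in Sham, a shift of -2.35 ± 0.70 log2 (SE, edgeR adjusted p = 0.276) against OVX. Erythroid medians were 4.98, 5.73 and 6.01, with 0 of 15 genes called by edgeR in either test, 3 and 1 at an unadjusted p under 0.05, and 1 called by DESeq2 against OVX. For the 8 B lymphopoiesis genes with counts in every group, the medians were 2.56, 3.74 and 5.40. Of the 9 tested, 1, Rag1, was called against OVX and 0 against Sham, with 2 and 5 at an unadjusted p under 0.05 in edgeR, while DESeq2 called 2 and 1. Mature neutrophil medians were 1.09, 1.48 and 2.01, and mature B and plasma cell medians were 2.19, 2.79 and 4.19. Blood progenitor medians were 1.34, 1.18 and 1.45, and megakaryocyte and platelet medians were 5.04, 5.20 and 4.84, so neither list was lowest in OVXE2. Osteoclast medians, the highest of the 3 groups in OVXE2, were 4.34, 3.66 and 4.00, with 0 of 12 called by edgeR and 3 and 1 at an unadjusted p under 0.05. Against OVX, DESeq2 called 1 osteoclast gene toward DAC and 1 toward gingiva. These lists are described by counts and medians only, and all of these medians share the same OVXE2 libraries.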

How the data were processed

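Poly(A) RNA of gingiva and dentoalveolar complex was sequenced as paired-end reads. Per the submitters' processing notes, the authors used fastp, STAR and DESeq2 with GRCm38 (mm10), and no versions or settings are stated. Deposited values are raw counts per gene and strand, for 38321 gene IDs, of which 38186 were named with GENCODE M21. Opposite-strand counts were used and summary lines dropped. All 24 libraries entered 1 fit (edgeR 4.0.16 on R 4.3.3, TMM scaling, filterByExpr, 6 groups, quasi-likelihood F test, 18 residual degrees of freedom, no covariate), with Benjamini-Hochberg adjustment at 0.05 and glmTreat for a 2-fold threshold. SE is the log2 difference over the square root of F. DESeq2 1.42.0, limma 3.58.1 and other settings were alternatives. Genes at 0 in a tissue were bounded with 3 counts over its 4 libraries, and count ratios have 95% Clopper-Pearson intervals.

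The 35 gene lists (448 symbols, of which 345 are in the files and 103 are not analysed here), the panel of genes and the members were chosen with earlier results of these data known. Genes were named by rule: the 10 largest differences in each direction, up to 4 called members per list and direction, the highest-level member, the panel and called shifts, of which a part is printed and some are not reported here. Vwf, Il7, Smpd3, Pdgfra, Kit, Ank1, Cd3e, Aldh1a2, Sox17, Sox18, Tie1, Mcpt4, Cpa3 and Cma1 were added after their values were seen. Promoters are from RefSeq on GRCm38.p6. Depth limits genes with few counts, and reads of near-identical gene copies are not counted when they map to several places.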

Additional observations from a re-analysis of the deposited data

Results flagged for a closer look

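Among the genes named, the value of 1 library stood apart from the other 3 of its group in 19 of 250 groups checked (Dixon's test), where chance alone flags about 1 in 20. Of these, 5 were B cell genes of gingival replicate 1: Vpreb3 at 0.567, Cd79a at 2.18, Cd79b at 2.35, Pax5 at 2.40 and Jchain at 5.76 CPM, against at most 0.0865, 0.295, 0.717, 0.211 and 0.379 CPM in the other gingival libraries. DAC replicate 1 was high for the epithelial genes Krt13 at 2709 CPM and Asprv1 at 227 CPM, against at most 431 and 36.4 CPM in the other DAC libraries, and low for Dll4 at 23.2 CPM against 26.9 to 27.6. DAC replicate 3 was high for Gper1 at 14.7 CPM and Cst7 at 2.94 CPM, DAC replicate 2 was high for Tnn at 1587 CPM, and DAC replicate 4 was set apart for Gp9 at 5.47 CPM. In gingiva, replicate 2 was high for Csf1 at 31.5 CPM and Trpc6 at 1.77 CPM, and replicate 3 was low for Igfbp5 at 401 CPM and Fam129c at 1.86 CPM. Hdc was high in gingival replicate 2 at 39.6 CPM and low in DAC replicate 1 at 33.7 CPM, against 11.4 to 15.4 and 50.8 to 53.8 CPM in the other libraries. Prg2 in gingival replicate 4, at 0.125 CPM, rests on very few counts.

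Of the 10 and 17 genes whose tissue difference shifted toward DAC and gingiva against OVX, those named here were, toward DAC, Pi15 at 3.14, A2m at 2.57, Trpc6 at 2.38, Pgr at 2.20, Tenm4 at 1.24, Whrn at 0.92 and Znhit6 at 0.74 (log2 shift). Toward gingiva they were Rag1 at -4.28, Fam129c at -2.58, Cecr2 at -2.54, Dpp4 at -2.14, Myb at -2.13 and Lrmp at -1.57. Of the 5 and 4 genes that shifted against Sham, those named were Pi15 at 2.46, Tenm4 at 1.21, Whrn at 1.11, Rhobtb1 at 1.10 and Znhit6 at 0.71 toward DAC, and Cst7 at -2.18, Fam129c at -2.04 and Plac8 at -1.33 toward gingiva. The Sham calls of Cst7 and Znhit6 each held in 4 of 16 leave-one-out fits and were lost with limma-voom, and that of Plac8 was lost without gingival OVXE2 replicate 2. The Whrn call against OVX was lost without gingival OVXE2 replicate 1.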

How the results depend on the processing

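The counts of genes differing between tissues stayed within 1.5 times of 10242, and of 4496 beyond 2-fold, under every alternative run, with 9849 to 10178 and 4248 to 4444 when single libraries were left out. Of 111 named genes called in the main comparison, 100 were called under each of the 19 alternatives that tested them and 0 reversed. The tests of a changed tissue difference moved more. Against OVX the count of 27 was 114 with DESeq2, 9 without the 4 DAC libraries richest in neuron genes, 8 without gingival and DAC OVXE2 replicate 1, 2 with only the 16 libraries of higher other-strand share, and 15 to 33 without single libraries. Against Sham the count of 9 was 70 with DESeq2, 17 with either-strand counts, 0, 2 and 0 in the same 3 settings of fewer libraries, and 4 to 37 without single libraries. Settings of fewer libraries, chosen after seeing the data, have less power by construction, and the cause of the other changes was not tested. With the replicate number as a block, the counts were 9946, 4422, 9 and 1. Of the genes whose shifts are named, Myb, Pi15, Trpc6, Tenm4, Fam129c and Dpp4 were called against OVX with the block, and Plac8 against Sham, and Mcpt4 was called between the tissues. Same-numbered gingival and DAC libraries had correlations of 0.219, 0.234, -0.331 and -0.0156 for OVXE2 numbers 1 to 4, above 0.1 in 2 of 4 OVXE2, 2 of 4 OVX and 3 of 4 Sham pairs, so whether the numbers pair the samples could not be decided, and the labels do not state it.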
